A study of Mus musculus with 6 samples.

Results

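Mouse chromosomes 3 and 14 carried the fewest H3S10p peaks per Mb of all 19 autosomes, and the peaks on them are described here. They were chosen by that low peak density, so the density itself is given as a description. The peaks are all those on either chromosome in 2 lists, 746 of 11067 peaks in library 1 and 860 of 12261 in library 2, or 1606 of 23328 in all (6.88%). Chromosome 3 held 435 and 481 of them, and chromosome 14 held 311 and 379. The series comprised 6 samples of embryonic stem cells, all from mouse strain 129P2/Ola, of which the 2 chromatin immunoprecipitation (ChIP-seq) libraries for H3S10p are used. Both came from cells arrested for 20 hours with aphidicolin, which blocks replicative DNA polymerases, and released from it for 3 hours, so no second ChIP condition enters. The other 4 samples were RNA libraries, 2 from untreated cells and 2 from cells exposed to ZM-447439, which inhibits Aurora kinases, over 48 hours, and are not used here. Peak lists hold no level of marker genes, so the labelled cell type was not checked against any.

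H3S10p is histone H3 phosphorylated at serine 10. In dividing cells the mark is written mainly by Aurora B, the kinase of the chromosomal passenger complex, appears first in pericentric heterochromatin before mitosis and then spreads along the chromosome arms. In interphase, signalling kinases also place it at genes that are being activated. Mouse autosomes carry the centromere at one end, and the satellite arrays there lie outside the assembled sequence, so a peak list describes the arms only.

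The labels do not say whether the libraries came from separate cultures. An exact sign-flip permutation test over 2 libraries cannot go below p = 0.5, so no difference between chromosomes was tested, and each value is given in both libraries with an interval for counting error. Neighbouring peaks are not independent, which makes those intervals too narrow. Read depth is unknown from the lists, and no input library was analysed here, so whether the peaks reflect enrichment of H3S10p was not tested. Positions are on mm9, counted from 1, and the genes or repeats at them were not analysed here.

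Density was the number of peaks divided by the span from 3 Mb, where assembled sequence starts, to the last called base. Chromosome 14 held 2.55 peaks per Mb in library 1 (exact Poisson 95% interval 2.27 to 2.85) and 3.10 in library 2 (2.80 to 3.43). Chromosome 3 held 2.78 (2.53 to 3.06) and 3.08 (2.81 to 3.36). The pair swapped places between the libraries, and their intervals overlapped, so neither is the sparser beyond counting error. By the mean of the libraries, the next autosomes above them were chromosome 18, at 2.91 (2.56 to 3.29) and 3.47 (3.09 to 3.88), and chromosome 13, at 3.34 (3.02 to 3.69) and 3.53 (3.20 to 3.89), although chromosome 12, with 3.52 in each library, was just below chromosome 13 in library 2. The intervals of chromosome 18 overlapped those of chromosomes 3 and 14 in both libraries, so the low end of the order is a gradual one. The other 17 autosomes together held 4.78 (4.68 to 4.87) and 5.28 (5.18 to 5.38) peaks per Mb, and chromosomes 3 and 14 together stood at 0.561 and 0.585 times these values.

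**Figure D1:**
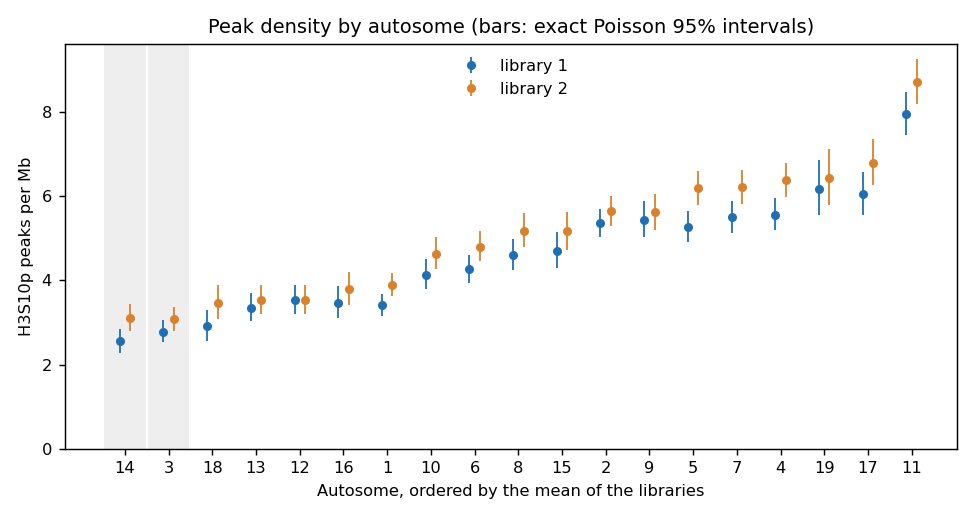
H3S10p peaks per Mb (y axis) on each of the 19 autosomes (x axis, ordered by the mean of the libraries), with a point for each library and bars for exact Poisson 95% intervals. Chromosomes 14 and 3, shaded, are at the low end, between 2.55 and 3.10 peaks per Mb, and their intervals overlap those of chromosome 18.

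In 1 Mb windows the densest windows of chromosome 3 lay in a single stretch, broken by thin windows, between thinner flanks. The window from 89000001 to 90000000 had 17 peaks in library 1 against 25 in library 2, and the window before it, from 88000001 to 89000000, held 19 and 22. The third in rank by the mean of the libraries, from 94000001 to 95000000, held 11 and 14. In both libraries each of these windows held at least 11 peaks, while the median window of the chromosome held 2 by the mean of the libraries. Next in rank by that mean were the windows at 87000001 to 88000000, with 14 and 10, and at 108000001 to 109000000, with 12 in each. In library 1 both of these held more than the window from 94000001, so the order beyond the leading pair rests on the mean.

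The dense stretch, taken from the first to the last window with a mean of at least 10 peaks, ran from 87 to 109 Mb. This way of dividing a chromosome was chosen after the values were seen. Those 22 Mb made up 14.1% of the span of chromosome 3 and contained 158 of its peaks in library 1 (36.3%) and 188 in library 2 (39.1%). Density there was 7.18 peaks per Mb (6.11 to 8.39) and 8.55 (7.37 to 9.86), above the average of the other 17 autosomes. The proximal 84 Mb held 2.19 (1.89 to 2.53) and 2.15 (1.85 to 2.49), and the distal part beyond 109 Mb held 1.85 (1.49 to 2.26) and 2.22 (1.83 to 2.68). The stretch was not dense throughout. Its windows from 91000001 to 94000000 had a mean of 2.5 peaks each and that from 98000001 had 1.5, while the flank window from 36000001 reached 8. The division itself places every window with a mean of at least 10 in the stretch, so these values describe the layout and are no test.

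Chromosome 14 was laid out differently, with a broad middle of moderate density, also broken by thin windows, between a thin start and a thin distal part. Its densest window, from 55000001 to 56000000, had 14 peaks in library 1 against 22 in library 2. The window from 21000001 to 22000000 held 14 and 12, and the window from 70000001 to 71000000 held 9 and 16. The last of these, like the window from 94000001 on chromosome 3, reached the 12.5 peaks that define an island below with nothing to spare.

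The middle was taken from the first window with a mean of at least 10 peaks, at 21 Mb, to 80 Mb, where a sparse run starts. By the rule used for chromosome 3 it would have ended with the window from 70000001 to 71000000. In this middle chromosome 14 had 246 peaks in library 1 against 301 in library 2, which were 79.1% and 79.4% of its peaks on 48.3% of its span. Density there was 4.17 peaks per Mb (3.66 to 4.72) and 5.10 (4.54 to 5.71), against 4.78 and 5.28 on the other 17 autosomes together. The middle was not dense throughout either. Its windows from 38000001 to 47000000 had means of 0 to 2.5 peaks, and that from 53000001 to 54000000 had 0. The next 38 Mb, from 80 to 118 Mb, formed the longest run of windows with a mean under 3 peaks, and held 30 and 29 peaks, or 0.789 peaks per Mb (0.533 to 1.13) and 0.763 (0.511 to 1.10). The longest such run on any other autosome had 18 windows, on chromosome 16, and that of chromosome 3 had 13 windows, from 69 to 82 Mb, with 10 and 9 peaks. Before 21 Mb chromosome 14 held 18 and 23 peaks, or 1.00 per Mb (0.593 to 1.58) and 1.28 (0.810 to 1.92). Peaks returned at the distal end, where the stretch beyond 118 Mb held 17 and 26, or 2.40 per Mb (1.40 to 3.85) and 3.68 (2.40 to 5.38).

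**Figure D2:**
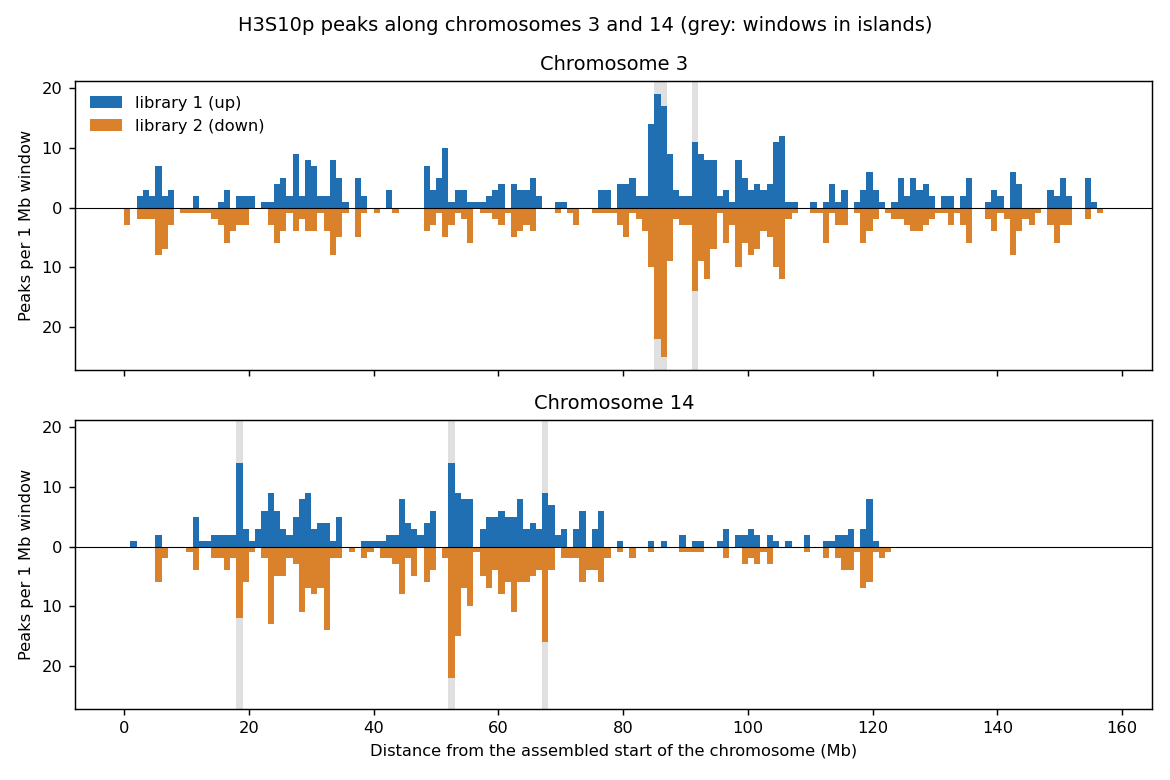
H3S10p peaks in each 1 Mb window (y axis; library 1 upward, library 2 downward) against the distance from the assembled start of chromosomes 3 and 14 (x axis, Mb), with windows in islands in grey. Chromosome 3 has 1 dense stretch, broken by thin windows and led by neighbouring windows with 19 and 17 peaks in library 1 and 22 and 25 in library 2. Chromosome 14 has a broad middle part, also broken by thin windows, and a long sparse part that held 30 and 29 peaks over 38 Mb.

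Window counts followed each other between the libraries, as a description across windows that share chromosome position. Over the 157 windows of chromosome 3, Pearson's r was 0.85 and Spearman's rho 0.74, and over the 123 windows of chromosome 14 they were 0.84 and 0.81. Over the 2142 windows of the other 17 autosomes they were 0.92 and 0.87. Among sparse autosomes Pearson's r varied, from 0.73 on chromosome 18 to 0.88 on chromosome 13 and 0.92 on chromosome 16.

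Windows with no peak in either library numbered 22 of 157 on chromosome 3 (14.01%, Wilson 95% interval 9.44 to 20.3%) and 25 of 123 on chromosome 14 (20.3%, 14.2 to 28.3%). The other 17 autosomes had 249 of 2142 (11.6%, 10.3 to 13.1%). Counted from the lowest share, chromosome 3 was the 13th and chromosome 14 the 18th of 19 autosomes. Empty windows were thus not particular to the sparsest chromosomes: chromosome 8 had 20.3% and chromosome 12 had 20.3% as well, and chromosome 13, of nearly as low a density, had 5.93%.

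The longest stretch of chromosome 3 without a peak in either library ran from 46252085 to 51028336, over 4.78 Mb, followed by 110053996 to 113271124, over 3.22 Mb. On chromosome 14 they ran from 9150239 to 13174017 (4.02 Mb) and from 4286192 to 8077113 (3.79 Mb), both in its thin start. Stretches of at least 1 Mb without a peak added up to 52.7 Mb, or 33.7% of the span, on chromosome 3, and to 49.6 Mb, or 40.6%, on chromosome 14. The share of chromosome 14 was the highest of the 19 autosomes, with chromosome 12 at 39.4% and chromosome 8 at 39.2%. Chromosome 3 ranked 14th from the lowest.

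An island was defined as a run of adjacent windows that each reached the 90th percentile of all autosomal windows, 12.5 peaks by the mean of the libraries. Chromosome 3 had 2 islands, one of 2 windows from 88000001 to 90000000 and one of a single window from 94000001 to 95000000. Chromosome 14 had 3 islands of a single window each, the 3 densest windows named above. Together these were 5 islands in 6 of 280 windows (2.14%), or 1.80 per 100 Mb. The other 17 autosomes had 117 islands in 250 of 2142 windows (11.7%), or 5.48 per 100 Mb, with a median of 2 windows and up to 10 in a row. Chromosome 18 had 0 islands and chromosome 13 had 2.

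The 6 island windows held 84 peaks in library 1 (11.3% of the peaks of chromosomes 3 and 14) and 111 in library 2 (12.9%). On the other 17 autosomes islands held 44.5% and 44.1% of the peaks. The difference in density between the groups of chromosomes lay mostly there. By the mean of the libraries, chromosomes 3 and 14 held 2.87 peaks per window and the others 5.01. Counting every peak of a window in an island, such windows made up 87.3% of that gap of 2.14. The count includes the number of peaks that windows outside islands also hold, so this share overstates what islands add. Windows outside islands held 2.57 peaks on average against 3.16, a ratio of 0.815, with medians of 2 and 2.5. The threshold was taken from the same windows, so this split describes the lists and is no test.

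Chromosome 15 shows that a low level between islands and a low total need not go together. Its windows outside islands held 2.44 peaks on average, lower than the 2.51 of chromosome 14 and the 2.62 of chromosome 3, and these were the lowest values of the 19 autosomes. But 14.9% of its windows were in islands, against 2.44% on chromosome 14 and 1.91% on chromosome 3. Within each chromosome the peaks of chromosomes 3 and 14 were gathered about as much as elsewhere. The densest 10% of windows, ranked in the other library so that the counts were not the ones that ranked them, held 34.9% and 35.1% of the peaks of chromosome 3 and 31.2% and 35.1% of those of chromosome 14. The same share over the other 17 autosomes was 35.4% and 35.6%.

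**Figure D3:**
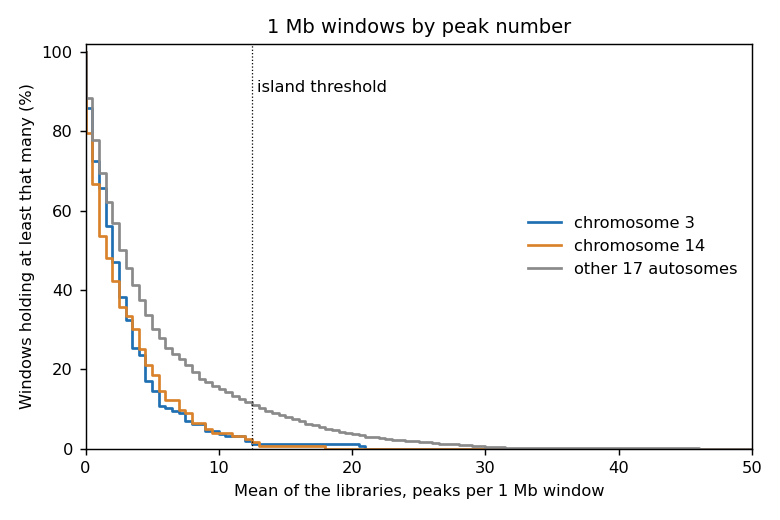
Share of 1 Mb windows (y axis, %) that hold at least the number of peaks on the x axis, by the mean of the libraries, for chromosome 3, chromosome 14 and the other 17 autosomes; the dotted line is the island threshold of 12.5 peaks. The curves of both chromosomes lie below that of the others: 17.2% of windows on chromosome 3 and 21.1% on chromosome 14 hold at least 5 peaks, against 33.6% elsewhere. At the threshold the shares are 1.91% and 2.44%, against 11.7%.

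Peaks on these chromosomes were somewhat wider than on most autosomes, clearly so in both libraries only on chromosome 3. The median width on chromosome 3 was 354 bp in library 1 (quartiles 235 and 511) and 327 bp in library 2 (207 and 482), which ranked 18th and 19th of 19 from the narrowest. On chromosome 14 it was 358 bp (221 and 520), the widest of 19 in library 1, and 299 bp (208.5 and 473), the 10th in library 2. The medians over the other 17 autosomes were 320 and 293 bp, and single autosomes among them ranged from 297 to 349 bp in library 1 and from 274.5 to 314 bp in library 2. These shifts were small against the distance between the quartiles. Chromosome 18, the next in density, was much like chromosome 14, at 349 bp in library 1 (17th) and 295.5 bp in library 2 (9th). Of the peaks of chromosomes 3 and 14, 29.2% in library 1 and 27.1% in library 2 lay in the top width quartile of autosomal peaks.

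Scores, the values the peak caller wrote for each peak and whose scale is not named, did not set these chromosomes apart. The median score on chromosome 3 was 65.9 in library 1 and 68.5 in library 2, and on chromosome 14 it was 67.2 and 66.15. Over the other 17 autosomes the medians were 65.9 and 66.8. Chromosome 3 ranked 11th and 18th of 19 from the lowest, and chromosome 14 ranked 17th in library 1 and tied for the lowest in library 2, so neither held its rank. Scores over 150 were as rare as elsewhere, with 3 of 746 peaks in library 1 (0.402%, Wilson interval 0.137 to 1.18%) and 2 of 860 in library 2 (0.233%, 0.0638 to 0.844%), against 0.393% and 0.382%.

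These 5 strong calls lay at 3 loci, of which 2 scored over 150 in both libraries and the other in library 1, with a lower-scoring counterpart in library 2. The strongest pair on chromosome 3 spanned 5860508 to 5860883 in library 1 and, in library 2, 5860548 to 5860881, with scores of 326 and 207. The window around it held only 2 peaks in each library. The next, at 7966088 to 7966300, scored 185.71 and 80.7, and the third, at 21053683 to 21053842, scored 88.6 and 112. On chromosome 14 the strongest pair had the same start in both libraries, 37246956, and ends at 37247121 and 37247120, with scores of 170 in each (170.09 and 169.68). It was followed by 41779894 to 41780086, at 120 and 138, and by 82483756 to 82483925, at 96.4 and 111, the latter inside the sparse 38 Mb. The windows around the 6 pairs held 1 to 5 peaks. The peaks in these pairs were 160 to 376 bp wide, apart from the one of 523 bp in library 2 at the second locus of chromosome 14.

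The widest recurring peaks were other ones, with scores of up to 90.5. On chromosome 3 the widest pair by mean width spanned 94976244 to 94977763 in library 1 and, in library 2, 94976690 to 94977735, with widths of 1520 and 1046 bp and scores of 88.6 and 73.4. It lay in the island that starts at 94000001. Next came 115954343 to 115955566, with widths of 1224 and 1090 bp, and 104764170 to 104764861, with 692 and 1279 bp. On chromosome 14 the widest pair, at 58693775 to 58695302, had widths of 1528 and 824 bp and scores of 53.9 and 56.8, and overlapped over 20% of the bases covered by either peak. The pairs at 117324708 to 117325832 (1125 and 763 bp) and 27353401 to 27354040 (640 and 1147 bp) followed. In contrast to the strongest pairs, whose borders differed by 0.5 to 165 bp between the libraries, borders of the widest pairs differed by 176 to 784 bp (start and end averaged).

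Recurring peaks were those with at least 1 bp in common with a peak called in the other library. On chromosome 3, 157 of 435 peaks of library 1 recurred (36.1%, Wilson interval 31.7 to 40.7%) and 157 of 481 of library 2 (32.6%, 28.6 to 37.0%). On chromosome 14, 100 of 311 recurred (32.2%, 27.2 to 37.5%) and 101 of 379 (26.6%, 22.4 to 31.3%). Over the whole lists the shares were 35.1% and 31.7%. Chromosome 3 lay near these values, and chromosome 14 lay below them, with an interval that excluded the whole-list share in library 2 but not in library 1. Counted from the lowest of 19 autosomes, chromosome 14 ranked 3rd and 2nd and chromosome 3 ranked 13th and 14th. Their intervals overlapped in both libraries, so the 2 chromosomes did not differ in recurrence beyond counting error. The ranks in the libraries rest on the same overlapping pairs. Single autosomes among the other 17 ranged from 29.9 to 43.4% in library 1 and from 26.6 to 38.5% in library 2.

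Width went with recurrence on these chromosomes too. The median width of recurring peaks on chromosomes 3 and 14 was 457 bp (library 1) and 415.5 bp (library 2), and that of the peaks without a counterpart was 295 and 257.5 bp. In the lowest width quartile of autosomal peaks, those on chromosomes 3 and 14 recurred at 16.0% (11.1 to 22.6%) and 11.8% (8.12 to 16.8%), and in the top quartile at 56.4% (49.8 to 62.8%) and 45.1% (38.8 to 51.5%). The other 17 autosomes gave 16.2% and 13.7% in the lowest quartile and 55.8% and 51.5% in the top one. In the second quartile the share was lower on chromosomes 3 and 14, at 22.2% (16.8 to 28.8%) and 17.7% (12.96 to 23.7%), against 28.4% (26.7 to 30.2%) and 24.7% (23.1 to 26.3%). The intervals overlapped in both libraries. Widths within the 258 overlapping pairs had a Spearman correlation of 0.45 between the libraries and scores one of 0.10, against 0.47 and 0.11 over the 3612 pairs of the other autosomes, where the points of each pair share a locus.

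Recurrence inside islands and in the rest of these chromosomes had overlapping intervals. Inside the 5 islands 32 of 84 peaks of library 1 recurred (38.1%, 28.4 to 48.8%) and 32 of 111 of library 2 (28.8%, 21.2 to 37.9%), and outside them 34.0% (30.5 to 37.7%) and 30.2% (27.0 to 33.6%). Single islands ranged widely on small numbers. The island from 94000001 on chromosome 3 had 6 recurring of 11 and 14 peaks, and the one from 70000001 on chromosome 14 had 2 of 9 and 16. In the sparse 38 Mb of chromosome 14, 8 of 30 and 8 of 29 peaks recurred (26.7% and 27.6%), with intervals from 14.2 to 44.4% and from 14.7 to 45.7% that include the value of the dense middle, 34.6% and 28.2%.

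A peak called in a single library was farther from the other library's peaks than elsewhere. On chromosome 3 the nearest peak of the other library was a median of 56.1 kb away from such peaks of library 1 and 65.1 kb from those of library 2, and on chromosome 14 the distances were 41.6 and 51.6 kb. Over the other 17 autosomes they were 24.0 and 27.1 kb. Within 100 kb, 68.5% (64.3 to 72.5%) and 62.1% (58.2 to 65.9%) of the single-library peaks of chromosomes 3 and 14 had a peak of the other library, against 81.7% and 79.9%. These distances move with density, which chose the chromosomes.

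Peaks close to a neighbour in the same library were fewer on both chromosomes than over the other 17 autosomes together, which again moves with density. A neighbour within 10 kb was found for 66 of 435 peaks of chromosome 3 in library 1 (15.2%, 12.1 to 18.8%) and 68 of 481 in library 2 (14.1%, 11.3 to 17.5%). On chromosome 14 it was found for 26 of 311 (8.36%, 5.77 to 11.97%) and 76 of 379 (20.1%, 16.3 to 24.4%). The other 17 autosomes had 22.8% (22.0 to 23.6%) and 25.3% (24.5 to 26.1%). Counted from the lowest of 19 autosomes, chromosome 3 ranked 5th and 2nd and chromosome 14 ranked 1st and 7th. Other sparse autosomes had like shares, with 11.8% and 15.8% on chromosome 18 and 15.6% and 15.9% on chromosome 13. Chromosome 3 as a whole gave nearly the same share in both libraries, though not within the classes of windows below. The intervals of chromosome 14 did not overlap. Close neighbours come in pairs or larger groups, so intervals that count single peaks are too narrow here. The 26 and 76 peaks of chromosome 14 formed 11 and 36 such groups.

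Peaks were then compared in classes of windows by peak number, where the intervals again count single peaks and so are too narrow. In windows with over 10 peaks in the library, 37.5% (29.1 to 46.7%) and 32.7% (26.5 to 39.5%) of the peaks of chromosomes 3 and 14 had a neighbour within 10 kb, against 33.9% (32.6 to 35.2%) and 36.9% (35.7 to 38.1%) elsewhere. That class has no upper bound, and its windows held up to 19 and 25 peaks here against 47 and 59 elsewhere. Density was thus not matched in it. In windows with 1 or 2 peaks the shares were 4.58% (2.12 to 9.63%) and 2.99% (1.17 to 7.42%), against 3.82% and 2.72%. In windows with 3 to 5 peaks the chromosomes and the libraries parted. Chromosome 14 had 2 of 100 peaks with such a neighbour in library 1 (0.550 to 7.001%) and 16 of 80 in library 2 (12.7 to 30.05%), below and above the other autosomes' 9.11% (7.92 to 10.5%) and 10.2% (8.96 to 11.7%). Chromosome 3 departed the opposite way, with 12.05% (7.94 to 17.9%) in library 1 and 5.92% (3.25 to 10.5%) in library 2, and intervals that overlapped those of the other autosomes. In the class of 6 to 10 peaks both chromosomes together had 9.28% (6.21 to 13.7%) against 16.9% (15.4 to 18.5%) in library 1, and in library 2 that class gave 17.6% (13.6 to 22.5%) against 16.96%. Both chromosomes rose there. Chromosome 3 went from 9 of 110 peaks in library 1 (8.18%) to 27 of 155 in library 2 (17.4%), and chromosome 14 from 10.2% to 17.9%. Only 15.0% and 23.1% of the peaks of chromosomes 3 and 14 lay in windows with over 10 peaks, where 50.1% and 52.9% of the other autosomes' peaks lay.

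**Figure D4:**
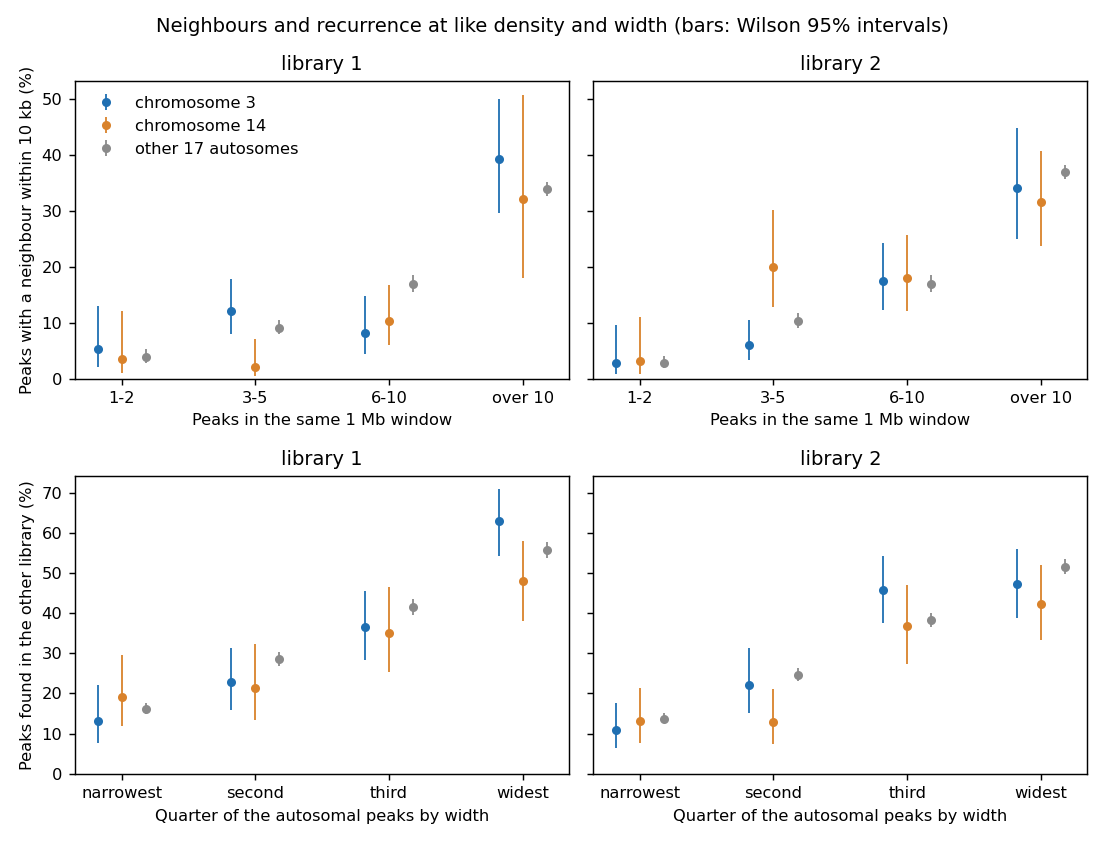
Top row: share of peaks with a neighbour within 10 kb (y axis, %) by the number of peaks of that library in the same 1 Mb window (x axis). Bottom row: share of recurring peaks (y axis, %) by quartile of width (x axis), each for chromosome 3, chromosome 14 and the other 17 autosomes with Wilson 95% intervals, library 1 left and library 2 right. Both shares are highest in the rightmost class on all of them, and the widest gap between the libraries is that of chromosome 14 at 3 to 5 peaks per window, with 2 of 100 peaks in library 1 and 16 of 80 in library 2.

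Clusters, peaks joined across gaps of at most 10 kb, were mostly pairs, here as elsewhere. Chromosome 3 had 31 clusters in library 1 and 30 in library 2, of which 27 and 24 were pairs, and chromosome 14 had 11 and 36, of which 8 and 32 were pairs. The largest on chromosome 14 in library 1 held 4 peaks, from 21513973 to 21533414, all in an island and 2 of them recurring. In library 2 the largest there held 3 peaks, and 4 clusters shared that size, at 26466213 to 26480444, 47441478 to 47452413, 56245767 to 56262460 and 58318406 to 58326433. None of the 4 was in an island. On chromosome 3 the largest in library 1 held 3 peaks, in 4 clusters, all in the dense stretch, which started at 87560433, 87799371, 88004324 and 90057981. In library 2 it held 4 peaks, at 89192060 to 89198746 and 89220458 to 89237387, both inside the island from 88000001. On the other 17 autosomes 797 of 1014 clusters in library 1 and 988 of 1238 in library 2 were pairs. On chromosomes 3 and 14 together 35 of 42 and 56 of 66 were. The largest on the other autosomes held 11 and 10 peaks, out of many more clusters. Islands held 66.9% and 65.2% of clusters there, against 26.2% and 24.2% on chromosomes 3 and 14, which moves with density.

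Chromosome 14 differed between the libraries more than any other autosome in 3 measures. The share of peaks with a neighbour within 10 kb was 11.7 percentage points higher in library 2, and the next largest difference was 5.45 points, on chromosome 15. The median width went from 358 bp in library 1 to 299 bp in library 2, and the next largest step was on chromosome 18, from 349 to 295.5 bp. Library 2 had 1.22 times as many peaks as library 1 there, and the next was again chromosome 18 at 1.19. Chromosome 3 was inside the range of the others in each, with neighbours for 15.2% and 14.1% of peaks, widths of 354 and 327 bp and 1.11 times as many peaks in library 2. The ranks were noted after the values were seen, and with 1 list per library the difference could not be tested.

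Of the parts of chromosome 14, the middle went from 246 peaks in library 1 to 301 in library 2, the start from 18 to 23 and the stretch beyond 118 Mb from 17 to 26. The sparse 38 Mb had nearly equal numbers, 30 and 29. The largest excess in a single window was in the window from 35000001 to 36000000, with 4 peaks in library 1 and 14 in library 2, followed by the windows from 55000001, with 14 and 22, from 70000001, with 9 and 16, and from 56000001, with 9 and 15. These 4 windows lay in the middle part. The 76 peaks of library 2 that had a close neighbour had a median width of 256.5 bp, against 308 bp for the rest of the chromosome in that library. The other 17 autosomes had nearly the same medians in library 2, 258 and 307 bp. Of the 76 peaks 23 recurred (30.3%, 21.1 to 41.3%), a share whose interval includes the 26.6% of all library 2 peaks of the chromosome. Within 10 kb of a library 1 peak lay 48 of them (63.2%, 51.9 to 73.1%). On the other 17 autosomes these shares were 27.5% and 64.1%. The 26 such peaks of library 1 were wider, with a median of 434.5 bp, and 11 of them recurred (42.3%, 25.5 to 61.1%). The other 17 autosomes had 282 bp and 30.7% in library 1, the latter inside that interval. The width of these 26 peaks thus departed more than that of the 76 peaks of library 2.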

How the data were processed

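H3S10p ChIP-seq peaks of 2 libraries, grouped by their titles, were analysed. Per the submitters' processing notes, the build is mm9 and Bowtie was used, and per the file headers peaks were called with MACS, here 1 list per library. Which version, threshold and control library MACS was run with is not given in the sources used here. The authors deposited 1 score per peak, at least 50.01, on a scale not named, which was used within a list. From these lists peaks were assigned by midpoint to 1 Mb windows counted from the first base of a chromosome, 2422 on the 19 autosomes. Density used the span from 3 Mb to the last called base of either library. Width quartiles were set over all autosomal peaks of a list. Intervals are exact Poisson or Wilson 95% intervals. Sequencing depth per sample is unknown.

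Members, measures and lists were chosen with earlier results of these data known. The naming rule took, on each chromosome, the 3 recurring pairs highest in mean score and in mean width, the 3 densest windows, islands of 2 or more windows, the largest clusters, the 2 longest stretches without a peak, and the next 2 autosomes by density; other regions were named after their values were seen. Alternatives varied the libraries, the upper 50% of each list by score or width, span, window size, island percentile, cluster gap and overlap rule. The calculations were tested on simulated peak lists. Python 3.11.15, NumPy 2.4.6, pandas 2.3.3, SciPy 1.17.1 and matplotlib 3.10.9 were used.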

Additional observations from a re-analysis of the deposited data

How the results depend on the processing

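No paired analysis was possible because the 2 ChIP libraries form a single group and no result comes from a test. Under 36 of 38 alternatives the value for chromosomes 3 and 14 stayed on the same side of the other 17 autosomes. Most of that count follows from the low density that chose the chromosomes. Density (5 of 5 alternatives), empty windows (6 of 6), peaks in islands (7 of 7) and close neighbours (6 of 6) all move with it. Of the other measures, width kept its side in 4 of 4, score in 3 of 4 and recurrence in 5 of 6. The exceptions were in the upper 50% of each list by score: the median score was 78.94 against 79.7 elsewhere, and recurrence 19.3% against 18.5%, so neither measure separates these chromosomes from the others. Width also moved with density elsewhere. On the other 17 autosomes peaks in islands had medians of 309 and 281 bp, against 327 and 302 bp outside. On chromosomes 3 and 14 the medians were 382.5 and 289 bp inside islands and 352.5 and 314 bp outside. For every measure 2 of the alternatives were 1 library alone.

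The values themselves moved. With the upper 50% by score, density was 1.49 peaks per Mb, empty windows 28.2%, peaks in islands 14.1%, median width 289 bp and close neighbours 6.48%. With the upper 50% by width, density was 1.57 peaks per Mb (0.626 times the other autosomes, 0.574 with all peaks), empty windows 32.1%, peaks in islands 21.5%, median width 481 bp, median score 64.3, close neighbours 7.999% and recurrence 37.4%. Fewer peaks per list lower density and close neighbours by construction. Empty windows were 32.8% at 0.5 Mb and 6.38% at 2 Mb. Peaks in islands were 18.2% at 0.5 Mb, 35.0% at the 80th percentile and 7.36% at the 95th. Close neighbours were 6.97% within 5 kb and 45.9% within 50 kb. Recurrence was 24.8% with overlap of 50% of both peaks and 36.0% when gaps of up to 1 kb counted.

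Leaving out either library gave empty windows of 24.3 to 30% (16.8% with both, where a window must be empty in both) and peaks in islands of 12.1 to 16.4%. Depth per library is unknown, so peaks missed for lack of reads cannot be counted.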
